A study of Bos taurus with 9 samples.

Results

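The family of miR-130, miR-301 and miR-454 (here the miR-130 family) and that of miR-148 and miR-152 (here the miR-148 family) were represented in extracellular vesicles (EVs) of bovine follicular fluid by 6 loci. They are among the 204 loci with a bovine miRNA name that, with 45 loci named after a homologous miRNA of another species, form the study's list of known and homologous miRNA. Members were chosen by name, as the deposited loci named bta-miR-130a, bta-miR-130b, bta-miR-301a, bta-miR-301b, bta-miR-454, bta-miR-148a, bta-miR-148b or bta-miR-152 in that list. Of the 8 names, 6 had a locus, namely bta-miR-130a, bta-miR-130b and bta-miR-301a in the first family and bta-miR-148a, bta-miR-148b and bta-miR-152 in the second, and values for miR-301b and miR-454 were not analysed here. The whole table holds 101889 loci.

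MicroRNA are short RNA that guide Argonaute proteins to messenger RNA through their seed, a short stretch near the 5′ end, and members of a family share that seed and therefore many targets. The miR-130 family has 1 seed, the miR-148 family another, and part of the letters of these seeds is common to both families, although the families are counted as separate. DNMT1, the maintenance DNA methyltransferase, is a well known target of the miR-148 family. A miRNA hairpin gives a 3p and a 5p strand, of which 1 is usually retained, and for these 6 miRNA the retained strand is the 3p arm. Follicular fluid fills the antrum, and its EVs can carry RNA from the granulosa and theca cells of the follicle wall, from the cumulus cells and oocyte, and from blood.

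Small RNA was sequenced from the EVs of 9 pools of follicular fluid, 3 from small follicles of 3 to 5 mm in diameter, 3 from medium follicles of 6 to 9 mm and 3 from large follicles above 9 mm. The ovaries came from cattle slaughtered at an abattoir, no treatment was given, and the age, breed and cycle stage of the cows were not given in the sources used here. Each sample is the EV RNA of many follicles pooled by size, and healthy and atretic follicles were pooled together. The fluid was gathered on several collection days, each of which gave all sizes, but the labels do not tie samples to days, so differences between days remain in the spread within a size, and replicates are named here by the sample numbers of the labels.

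The counts of all deposited loci summed to 14664460, 8941598 and 10172365 in the samples of small follicles, 12073574, 11685567 and 10641765 in those of medium follicles and 9738690, 10230770 and 11689805 in those of large follicles. The part of them on the known and homologous miRNA loci was 23.1%, 14.1% and 26.9% in the small, 3.88%, 3.75% and 11.2% in the medium and 1.58%, 1.43% and 5.65% in the large follicles. Values below are normalized counts, that is, CPM over the counts on these miRNA loci after scaling by TMM, a factor that removes shifts shared by most loci. On this scale a limit of 3 counts lay between 0.923 and 21.3 depending on the sample, and it covers counting error only.

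Per base of locus, bta-miR-148a was the most abundant of the 6 loci, with a mean of 2198 normalized counts per base in small follicles, followed by bta-miR-130a with 325, bta-miR-148b with 155, bta-miR-152 with 54.0, bta-miR-301a with 43.6 and bta-miR-130b with 11.2. In large follicles the means were 780 normalized counts per base for bta-miR-148a, 122 for bta-miR-148b, 67.2 for bta-miR-130a, 28.1 for bta-miR-301a, 21.0 for bta-miR-152 and 3.40 for bta-miR-130b. The order of bta-miR-152 and bta-miR-301a was within their spread in small follicles (54.0 ± 16.9 and 43.6 ± 22.2 per base, SD, n = 3) and in large follicles (21.0 ± 6.71 and 28.1 ± 10.1 per base), and so was that of bta-miR-148b and bta-miR-130a in large follicles (122 ± 53.4 and 67.2 ± 23.8 per base). Not divided by length, the means of bta-miR-152 and bta-miR-301a in small follicles were 972 and 1002, in the other order. Over the 9 samples, bta-miR-148a ranked 5 among the miRNA loci by its summed count of 457075, and bta-miR-130b, with 2183, ranked 154.

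From small to large follicles, bta-miR-130a, bta-miR-130b, bta-miR-148a and bta-miR-152 fell, by 4.82-, 3.19-, 2.82- and 2.56-fold, and bta-miR-301a and bta-miR-148b did not pass the test. All comparisons of sizes were tested by edgeR's quasi-likelihood test over the miRNA loci, with the FDR (the Benjamini-Hochberg adjusted p) called under 0.05. The 4 of 6 members called lower stood beside a background of 24.5% of all miRNA loci called lower in large follicles, and 17.7% were called higher. For the same 4 members every sample of large follicles lay below every sample of small follicles, beside 29.3% of all miRNA loci. The median log2 fold change of the 6 members was -1.43 against -0.18 over all miRNA loci, of which 134 (53.8%) were below 0. It was -1.67 for the 3 loci of the miR-130 family and -1.36 for the 3 of the miR-148 family. In bulk fluid, fewer cells of a type releasing EVs and less of a miRNA per cell cannot be told apart.

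**Figure D1:**
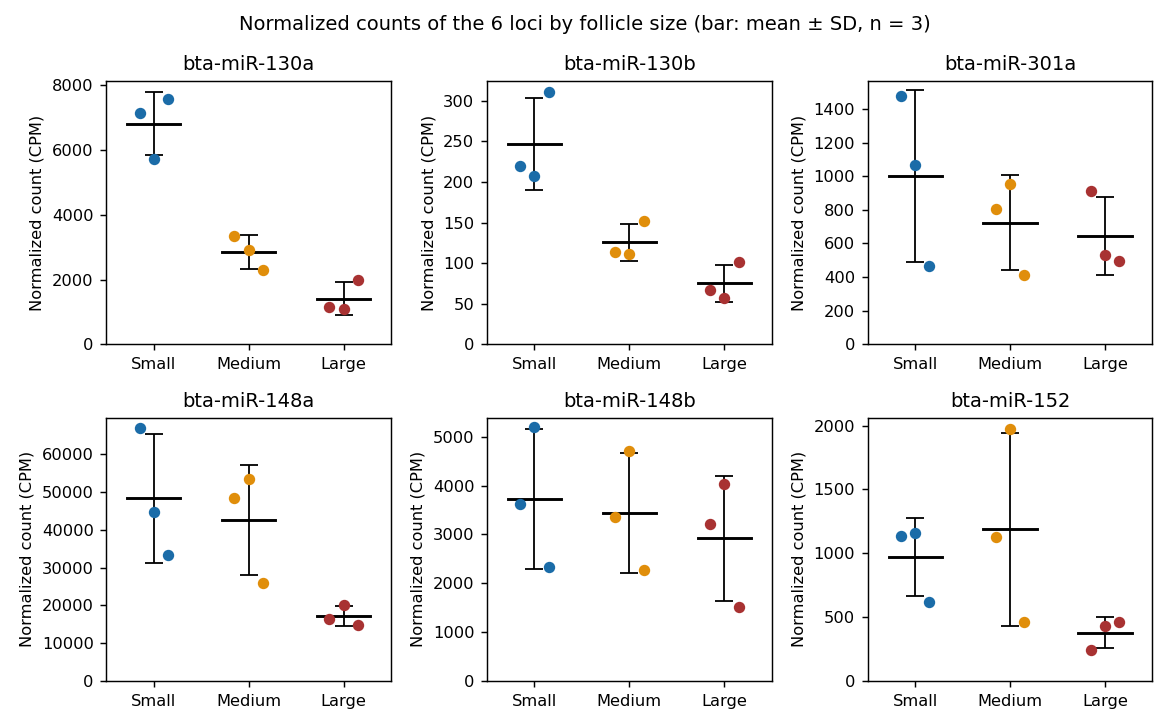
Normalized counts (CPM over the miRNA loci after TMM scaling) of the 6 loci in the 9 samples, by follicle size on the x axis; each point is 1 sample, and the bar and whiskers are the mean and SD of 3 samples. The samples of large follicles lie below all samples of small follicles for bta-miR-130a, bta-miR-130b, bta-miR-148a and bta-miR-152, and the sizes overlap for bta-miR-301a and bta-miR-148b.

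In the miR-130 family, bta-miR-130a, a 21 base locus at 15:82197765-82197785 on the forward strand (UMD3.1), had normalized counts of 7137, 5736 and 7596 in small follicles, 3342, 2905 and 2294 in the medium and 1143, 1101 and 1988 in the large follicles. No 2 sizes overlapped, and every sample of a larger size lay below every sample of a smaller one. The means were 6823 ± 969, 2847 ± 527 and 1411 ± 500 (SD, n = 3 each). The log2 fold change from small to large follicles was -2.27 (SE 0.35, FDR = 0.000598). From small to medium it was -1.26 (SE 0.34, FDR = 0.0676), and from medium to large -1.01 (SE 0.34, FDR = 0.0644). Neither of these steps passed the threshold, although the unadjusted p of the first was 0.0028.

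The locus bta-miR-130b (22 bases, 17:74100549-74100570, reverse strand, UMD3.1) carries the same seed as bta-miR-130a and was far less abundant. Its normalized counts were 219.9, 207.8 and 311.4 in the small, 113.7, 111.6 and 151.7 in the medium and 66.9, 56.8 and 100.8 in the large follicles. As for bta-miR-130a, no 2 sizes overlapped and the order followed follicle size. The log2 fold change was -1.67 from small to large (SE 0.39, FDR = 0.00659), -0.97 from small to medium (SE 0.37, FDR = 0.17) and -0.71 from medium to large (SE 0.39, FDR = 0.22). The values of large follicles rest on 12, 8 and 57 raw counts.

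The third locus of this family, bta-miR-301a (23 bases, 19:10349518-10349540, reverse strand, UMD3.1), did not separate the sizes. Its normalized counts were 1478, 1066 and 463.5 in the small, 804.9, 956.8 and 410.4 in the medium and 914.6, 532.8 and 493.5 in the large follicles. The lowest sample of small follicles lay below all 3 samples of large follicles, and the SD of small follicles, 510, was larger than the distance between the means of small and large follicles (1002 and 647). The log2 fold change from small to large was -0.63 (SE 0.47, FDR = 0.29). In the RefSeq annotation of a later assembly (ARS-UCD2.0), MIR301A lies beside MIR454 within the span of SKA2, a gene of the kinetochore, and MIR130B lies beside MIR301B.

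In the miR-148 family, bta-miR-148a (22 bases, 4:70414294-70414315, forward strand, UMD3.1) had normalized counts of 66996, 44675 and 33417 in the small, 48380, 53477 and 26001 in the medium and 16368, 20212 and 14882 in the large follicles. Small and medium follicles overlapped, and all 3 samples of large follicles lay below both. The means were 48363 ± 17091, 42619 ± 14616 and 17154 ± 2751 (SD, n = 3 each). The log2 fold change was -1.50 from small to large (SE 0.38, FDR = 0.00977) and -1.31 from medium to large (SE 0.38, FDR = 0.0478), against -0.18 from small to medium (SE 0.38, FDR = 0.812). By rank among the miRNA loci in each sample it stood at 3, 5 and 8 in the small, 4, 4 and 11 in the medium and 15, 14 and 20 in the large follicles. Without replicate 1 of the small follicles the FDR for small against large was 0.0538.

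The locus bta-miR-152 (18 bases, 19:39081217-39081234, forward strand, UMD3.1) had normalized counts of 1137, 1158 and 620.0 in the small, 1124, 1975 and 461.8 in the medium and 239.8, 433.4 and 461.6 in the large follicles. Medium follicles spanned the widest range, from the level of large follicles to the highest sample of the 9. The groups of small and large follicles did not overlap, and the log2 fold change between them was -1.36 (SE 0.50, FDR = 0.0474). That from medium to large was -1.64 (SE 0.51, FDR = 0.0555), and that from small to medium 0.29 (SE 0.49, FDR = 0.768). The call between small and large follicles was lost when small replicate 1 (FDR = 0.121), small replicate 2 (0.123), medium replicate 5 (0.0667), large replicate 10 (0.133), large replicate 11 (0.0967) or large replicate 12 (0.0504) was left out, and under the size factors of DESeq2 (0.0507).

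The locus bta-miR-148b (24 bases, 5:25849777-25849800, reverse strand, UMD3.1) differs from bta-miR-148a in few letters outside the seed, and the sizes overlapped for it. Its normalized counts were 3630, 5206 and 2343 in the small, 3350, 4700 and 2263 in the medium and 3218, 4028 and 1518 in the large follicles. The spread among the samples of each size, with SDs of 1434, 1221 and 1281, was larger than the distance between the means of 3726, 3438 and 2921, and it includes any difference between collection days. The log2 fold change from small to large was -0.35 (SE 0.44, FDR = 0.525). MIR148B lies within COPZ1 and MIR152 within COPZ2 in the RefSeq annotation (ARS-UCD2.0), and these paralogous genes encode the zeta subunits of the COPI vesicle coat.

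Between small and medium follicles, 0 of the 6 members were called, by edgeR's quasi-likelihood test, beside a background of 0.0% of the miRNA loci. At an unadjusted p under 0.05 there were 2 members, bta-miR-130a and bta-miR-130b, beside 44 of the miRNA loci (17.7%), and for the same 2 the medium follicles lay below the small ones without overlap, beside 16.9%. DESeq2 and edgeR's exact test each called 1 member lower, bta-miR-130a, beside 3.61% and 3.21% of the miRNA loci. Between medium and large follicles, 1 of 6 members, bta-miR-148a, was called lower, beside 4.82% of the miRNA loci, and for 4 of 6, all but bta-miR-301a and bta-miR-148b, the large follicles lay below the medium ones without overlap, beside 17.7%. For bta-miR-152 this separation was under 1 raw count, between normalized counts of 461.6 and 461.8. DESeq2 and edgeR's exact test each called 3 members lower, bta-miR-130a (FDR = 0.0144 and 0.0362), bta-miR-148a and bta-miR-152 (0.0072 and 0.019), beside 12.9% and 12.0% of the miRNA loci. Of the 9 fits that left out a sample, the call of bta-miR-148a was kept in 1, that without medium replicate 8 (FDR from 0.0345 to 0.165).

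**Figure D2:**
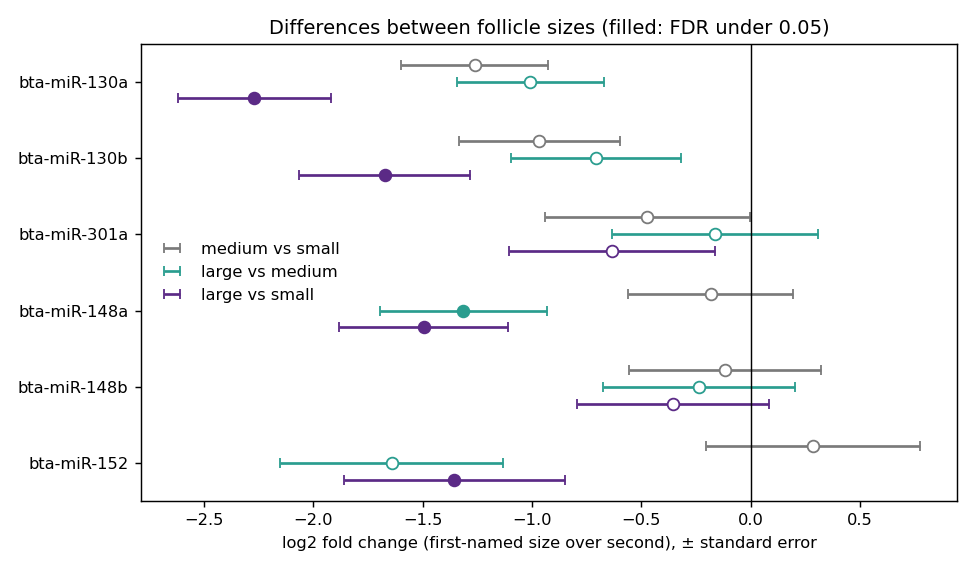
log2 fold changes of the 6 loci between follicle sizes (x axis, the first-named size over the second) with their standard errors from edgeR's quasi-likelihood fit of 9 samples; filled points have an FDR under 0.05. Between large and small follicles 4 loci are filled, from -2.27 for bta-miR-130a to -1.36 for bta-miR-152; between large and medium follicles bta-miR-148a is filled, and between medium and small follicles no point is.

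The size of the difference between small and large follicles depended on the scale. Scaled by the counts of all deposited loci, the median log2 fold change of the miRNA loci moved by -2.88, a shift that lowers every miRNA locus together. All 6 members were then called lower, beside 76.7% of the miRNA loci, with log2 fold changes of -5.05 for bta-miR-130a, -4.53 for bta-miR-130b, -3.62 for bta-miR-301a, -4.52 for bta-miR-148a, -3.50 for bta-miR-148b and -4.12 for bta-miR-152. Relative to the median of the miRNA loci on that scale, these were -1.99, -1.47, -0.56, -1.46, -0.43 and -1.06. The 4 loci called on the first scale were the 4 of the 6 that lay farthest below that median. A shift shared by the loci leaves their order nearly as it was, so this is no separate test of the calls. With TMM over all deposited loci, the median log2 fold change of the miRNA loci was -4.71. The members were then at -6.67 (bta-miR-130a), -6.17 (bta-miR-130b), -5.26 (bta-miR-301a), -6.18 (bta-miR-148a), -5.18 (bta-miR-148b) and -5.71 (bta-miR-152).

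As a share of all deposited counts, the 6 loci together held 1.25% ± 0.514 in the small, 0.284% ± 0.0599 in the medium and 0.0569% ± 0.0322 in the large follicles (SD, n = 3 each). As a share of the counts on the miRNA loci they held 7.72%, 5.42% and 4.50% in the small, 6.66%, 6.43% and 3.14% in the medium and 2.55%, 2.53% and 1.66% in the large follicles. Most of this was bta-miR-148a, with 4.65% ± 1.58, 4.53% ± 1.69 and 1.71% ± 0.375 of the miRNA counts. The miR-130 family held 0.781% ± 0.109, 0.393% ± 0.106 and 0.210% ± 0.0435, and the miR-148 family 5.10% ± 1.63, 5.02% ± 1.87 and 2.04% ± 0.518. Within the families, bta-miR-148a made up 90.9% ± 3.03, 90.3% ± 1.33 and 84.2% ± 3.49 of the counts of the miR-148 family, and bta-miR-130a 84.5% ± 5.47, 77.3% ± 3.74 and 65.3% ± 11.6 of those of the miR-130 family. These shares were not tested.

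**Figure D3:**
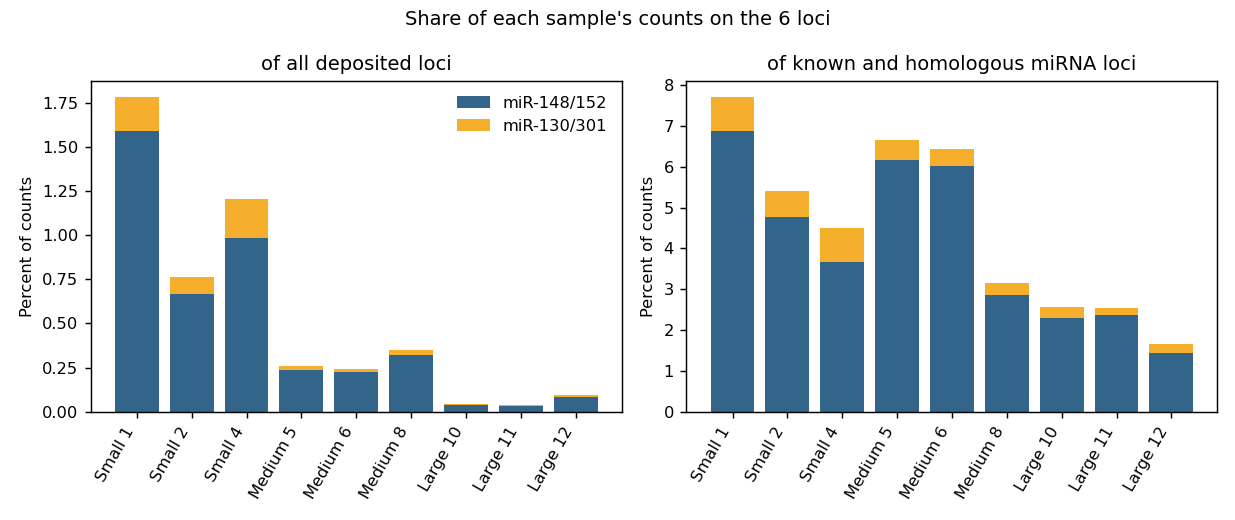
Counts on the 6 loci as a percent of the counts on all deposited loci (left) and on the known and homologous miRNA loci (right), 1 stacked bar per sample, with the miR-148 family (3 loci) below and the miR-130 family (3 loci) on top. The 3 samples of large follicles have the lowest bars in both panels, at 2.55%, 2.53% and 1.66% of the miRNA counts, and the miR-148 family makes up most of every bar.

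Ratios of 2 loci within a library do not depend on the scaling, and 7 of them were tested for a trend with size by a two-sided exact permutation test of the log2 ratio (1680 arrangements of the 9 samples, smallest possible p = 0.00119), adjusted over the 7. Of the 7 ratios, 1 passed, that of bta-miR-148a to its partner arm chi-miR-148a-5p (4:70414256-70414277, forward strand, UMD3.1), the 5p strand of the same hairpin, named after the goat. There were 246, 203 and 150 counts of bta-miR-148a for each count of the partner in small follicles, 169, 197 and 94.4 in the medium and 34.1, 43.1 and 48.1 in the large follicles. All 3 large samples lay below the other 6, and small and medium follicles overlapped. The ratio was 4.73-fold lower in large than in small follicles (exact permutation p = 0.00476, adjusted p = 0.0333). By the exact permutation test it did not pass without small replicate 1 (adjusted p = 0.0688) or large replicate 10 (0.075), and it was at 0.05, not under it, without medium replicate 5, medium replicate 6 or large replicate 11. With ranks in place of the log2 ratios, the ratio did not pass either.

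The partner arm itself had normalized counts of 272, 221 and 222 in the small, 286, 271 and 276 in the medium and 480, 469 and 310 in the large follicles, so large follicles lay above the other sizes while bta-miR-148a lay below. Its log2 fold change from small to large was 0.81 (SE 0.32, FDR = 0.0608), and it was called higher by DESeq2 (0.89, FDR = 0.0207) and with the size factors of DESeq2 in edgeR's test (0.91, FDR = 0.0421). It was not called by edgeR's exact test (FDR = 0.066), without TMM (0.0558) or in the fit of only small and large follicles (0.124). Of the 9 fits that left out a sample, 1 called it. The log2 fold change of this arm turned to -2.30 when scaled by all deposited counts and to -4.01 with TMM over all deposited loci. Relative to the median of the miRNA loci it was 0.76 and 0.71 on these scales. The partner arm of bta-miR-148b, ssc-miR-148b-5p, named after the pig (5:25849816-25849839, reverse strand, UMD3.1), fell, with normalized counts of 223 ± 11.2, 185 ± 28.1 and 113 ± 21.0 (SD, n = 3 each) and a log2 fold change from small to large of -0.97 (SE 0.34, FDR = 0.0400). Its call was kept in 2 of the 9 fits that left out a sample and was lost in the fit of only small and large follicles (FDR = 0.0579). Its values in large follicles rest on 16, 17 and 73 raw counts. The ratio of bta-miR-148b to this arm was 16.9 in the small, 18.3 in the medium and 27.1 in the large follicles on average, with overlap of the sizes (exact permutation p = 0.254, adjusted p = 0.296).

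The other ratios did not pass after adjustment. Counts of bta-miR-148a per count of bta-miR-148b averaged 13.8 ± 4.96, 12.4 ± 1.74 and 6.64 ± 2.75 (exact permutation p = 0.0345, adjusted p = 0.0806), and those of bta-miR-130a per count of bta-miR-301a 8.87 ± 6.52, 4.26 ± 1.28 and 2.45 ± 1.43 (exact permutation p = 0.0155, adjusted p = 0.0542). For bta-miR-130a against bta-miR-130b the means were 28.1 ± 4.06, 23.5 ± 7.46 and 18.7 ± 1.43 (exact permutation p = 0.0595, adjusted p = 0.104). For bta-miR-148a against bta-miR-152 they were 50.5, 42.1 and 49.0 (exact permutation p = 0.823), and for bta-miR-130a against bta-miR-148a, the most abundant members of the families, 0.154, 0.0705 and 0.0860 (exact permutation p = 0.126, adjusted p = 0.177).

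**Figure D4:**
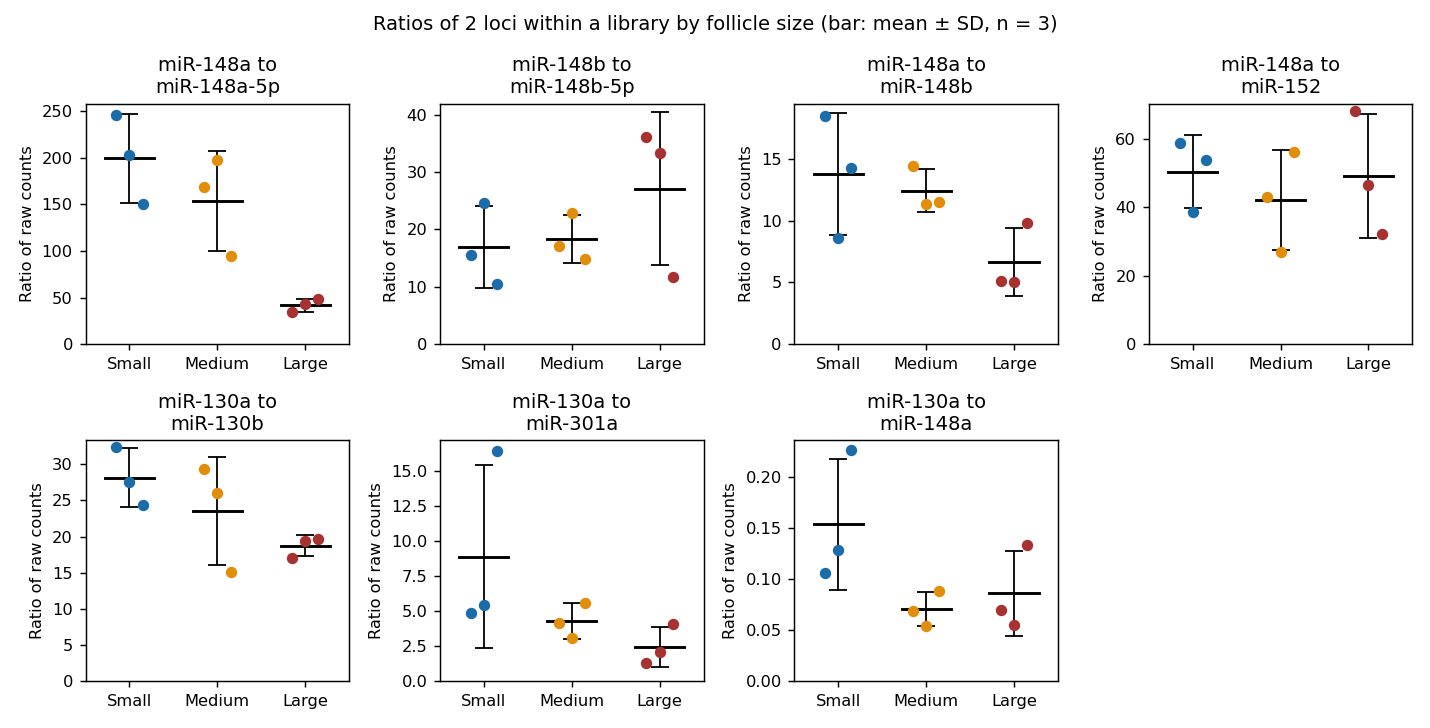
Ratios of the raw counts of 2 loci within each library (y axis, linear) by follicle size, 1 panel per ratio; each point is 1 sample, and the bar and whiskers are the mean and SD of 3 samples. For miR-148a to its partner arm the large follicles lie at 34.1 to 48.1 and the small ones at 150 to 246; the sizes overlap for miR-148a to miR-152.

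The loci whose profile over the 9 samples was most like that of bta-miR-130a, by Pearson's r of the log2 normalized counts among 185 loci, were bta-miR-1388-5p (r = 0.973), eca-miR-199b-3p (r = 0.947) and mml-miR-452-3p (r = 0.936). For bta-miR-148a they were bta-miR-452 (r = 0.970), bta-miR-106b (r = 0.942) and bta-miR-192 (r = 0.938). Their log2 fold changes from small to large follicles, which describe loci picked on the same samples, were -2.03 for bta-miR-1388-5p, -1.70 for eca-miR-199b-3p, -2.06 for mml-miR-452-3p, -1.46 for bta-miR-452, -2.06 for bta-miR-106b and -2.26 for bta-miR-192. Within the miR-130 family, r was 0.950 between bta-miR-130a and bta-miR-130b, 0.331 between bta-miR-130a and bta-miR-301a and 0.110 between bta-miR-130b and bta-miR-301a. Within the miR-148 family, it was 0.894 between bta-miR-148a and bta-miR-152, 0.579 between bta-miR-148a and bta-miR-148b and 0.530 between bta-miR-148b and bta-miR-152, and the most abundant members of the 2 families, bta-miR-130a and bta-miR-148a, had an r of 0.757. These values describe 9 samples of 3 follicle sizes, in which both loci of a pair are read from the same library, and they were not tested.

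Markers of other cells moved with follicle size in part. The 2 loci of miR-202, a miRNA of gonadal somatic cells, were abundant in every sample, with summed normalized counts of 17452, 18871 and 19062 in the small, 15395, 18439 and 26431 in the medium and 11578, 11588 and 34277 in the large follicles, most of it chi-miR-202-3p, and 0 of 2 were called. Of 3 red blood cell markers 2 were measured, bta-miR-486 and bta-miR-451, with summed normalized counts of 567, 2323 and 239 in the small, 1276, 2706 and 1269 in the medium and 6720, 8923 and 13226 in the large follicles. Large follicles lay above the other sizes, and most of the counts were bta-miR-486. It was called higher in large than in small follicles (log2 fold change 3.29, FDR = 0.00548), while bta-miR-451 was not called (2.04, SE 0.82, FDR = 0.0623). Of 5 white blood cell markers 3 were measured, with summed normalized counts of 2047, 1588 and 997 in the small, 1060, 1371 and 988 in the medium and 558, 2195 and 5410 in the large follicles. The most abundant, bta-miR-155, was not called, and bta-miR-142-5p (log2 fold change 2.25, FDR = 0.00374) and bta-miR-150 (5.68, FDR = 0.00132) were higher. These blood marker calls depended on the scale. Scaled by all deposited counts, 1 of all miRNA loci was called higher in large than in small follicles. With TMM over all deposited loci 0 were. The markers of liver (bta-miR-122) and skeletal muscle (bta-miR-1, bta-miR-133a and bta-miR-206) were not analysed here, since the list holds no locus of theirs. The part of blood RNA in the differences of the 6 members was not tested.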

How the data were processed

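Small RNA libraries of 9 EV samples were made and sequenced by the authors, who mapped reads with bwa (BWA 0.7.5a and UMD3.1 per the labels), merged mapped reads into loci and deposited raw counts per locus with no normalization. How reads mapping to several places were counted is not given in the sources used here, so counts of loci with near-identical sequence are uncertain, and PCR duplicates carry no molecular identifiers. The deposited counts were used unchanged.

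The 249 known and homologous miRNA loci were normalized by TMM and fitted with 3 size groups with edgeR 4.0.16, which uses limma 3.58.1, under R 4.3.3 (quasi-likelihood, two-sided, Benjamini-Hochberg over the 249 loci, FDR under 0.05). That list holds loci with a mean of at least 100 in some size group, so weaker loci were not analysed here. Nothing in the labels pairs the samples. Ratios were tested by exact permutation using scipy 1.17.1, pandas 2.3.3 and numpy 2.4.6 (Python 3.11.15; plots by matplotlib 3.10.9). On simulated data for large versus small follicles with a log2 change of 2 in 50 of the 249 loci, 42 were recovered and 2 others called. The simulated spread depended on abundance alone and held no collection days, and smaller changes were not simulated.

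The members, marker lists and tests were chosen with earlier results of these data known. Named loci are the 6 members, their listed partner arms, for the most abundant member of each family the 3 loci of highest correlation (log2 of normalized count plus 1, summed count of at least 1000), and deposited loci within 1000 bases. A list by shared seed letters was not analysed here. Fold changes and p-values that the authors list were not used. Results were recomputed with DESeq2 1.42.0, with its size factors, with the exact test of edgeR, with other scalings, filterByExpr, an FDR under 0.1, fits of 2 groups, ranks or a pseudocount of 0.5 for ratios, loci of 18 to 30 bases for shares, and leaving out each sample.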

Additional observations from a re-analysis of the deposited data

Results flagged for a closer look

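Counts were found on 2 deposited loci that lie within 1000 bases of a member but outside the list of miRNA, and they were noted because their summed counts exceed the 3 counts that a count of 0 allows. The locus at 17:74100870-74100892 (reverse strand, 23 bases, UMD3.1), 299 bases from bta-miR-130b, had a summed count of 150, with raw counts of 77, 23 and 36 in small, 3, 1 and 7 in medium and 0, 0 and 3 in large follicles. The locus at 19:39081179-39081201 (forward strand, 23 bases, UMD3.1), 15 bases from bta-miR-152, had a summed count of 84, with raw counts of 40, 1 and 27 in small, 6, 0 and 5 in medium and 0, 2 and 3 in large follicles. Both lie on the strand of the member beside them, and neither was tested. The first lies beside bta-miR-130b, as MIR301B lies beside MIR130B in the RefSeq annotation (ARS-UCD2.0). The partner arms chi-miR-148a-5p and ssc-miR-148b-5p lie 16 and 15 bases from their members, a distance like that of the locus beside bta-miR-152. No sequences were compared, so whether these loci are miR-301b and the partner arm of bta-miR-152 was not tested.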

How the results depend on the processing

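Leaving aside the 2 scalings over all deposited loci, which lower all miRNA loci together, and the alternatives that leave fold changes as they were (filterByExpr and an FDR under 0.1), 12 of 252 log2 fold changes of the 6 members changed sign, each in a comparison in which the locus was not called. The calls of bta-miR-130a and bta-miR-130b between small and large follicles were kept in all 9 fits that left out a sample, that of bta-miR-148a in 8 and that of bta-miR-152 in 3. No paired analysis was possible because the sizes share no replicate numbers and no label names the collection day of a sample. Raw counts in large follicles were few for bta-miR-130b and for the loci beside the members that lie outside the miRNA list. They were 16, 17 and 73 for ssc-miR-148b-5p, 43, 61 and 261 for bta-miR-152 and 86, 66 and 175 for chi-miR-148a-5p. Depth limits these values, and p-values measure only the spread between these pools.

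With the summed count of all deposited loci and with TMM over them, 192 (1 higher, 191 lower) and 232 (0 higher, 232 lower) of the miRNA loci were called between small and large follicles, against 44 higher and 61 lower; 59 and 109 between small and medium, and 0 and 0 between medium and large. Between small and medium and between medium and large follicles, edgeR's exact test called 16 and 55 loci, DESeq2 28 and 63, an FDR under 0.1 16 and 65, and the fit of 2 groups 2 between medium and large. Without TMM, 12 higher and 18 lower were called between medium and large follicles, against 14 and 12. With the size factors of DESeq2, 17 higher and 17 lower were called between these sizes. Members called between small and medium follicles were 1 by the exact test, 1 by DESeq2, 1 at an FDR under 0.1, and 4 and 6 by the scalings over all loci. Between medium and large they were 3 by the exact test, 3 by DESeq2, 2 with its size factors, 3 without TMM, 3 at an FDR under 0.1, 0 and 0 by the scalings over all loci and 0 in the fit of 2 groups.

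By these 2 scalings, the log2 fold change of chi-miR-148a-5p was -2.30 and -4.01 from small to large, -1.47 and -2.51 from small to medium and -0.83 and -1.50 from medium to large, and that of bta-miR-152 from small to medium -1.70 and -3.04. For bta-miR-148b from small to medium it was 0.012 with DESeq2 and 0.012 with its size factors, and 0.023 without TMM. With ranks, 0 ratios passed (bta-miR-148a to its partner arm at -2.24, adjusted p = 0.0667). Over loci of 18 to 30 bases, the 6 members held 2.55%, 0.835% and 0.209% of the counts in small, medium and large follicles.

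Leaving out each sample in turn gave 63 to 105 loci called between small and large follicles (63 without small replicate 1, 69 without large replicate 11), 0 to 13 between small and medium (13 without large replicate 12) and 0 to 24 between medium and large (0 without medium replicate 5, medium replicate 6 or large replicate 11, 5 without small replicate 1, 15 without small replicate 2). Members called ranged from 2 to 4, 0 to 1 and 0 to 2, and the call of bta-miR-148a between medium and large was kept only without medium replicate 8. The number of ratios that passed ranged from 0 to 3. The log2 difference between large and small follicles ranged from -2.43 to -2.08 for bta-miR-148a to its partner arm, from -1.38 to -0.81 for bta-miR-148a to bta-miR-148b, from -0.36 to 0.18 for bta-miR-148a to bta-miR-152, from -0.68 to -0.47 for bta-miR-130a to bta-miR-130b and from -2.23 to -1.22 for bta-miR-130a to bta-miR-301a. Without a sample, log2 fold changes from small to medium ranged from -0.38 to 0.13 for bta-miR-148a, -0.41 to 0.20 for bta-miR-148b and -0.30 to 0.67 for bta-miR-152, and from medium to large from -0.50 to 0.090 for bta-miR-301a and -0.54 to 0.076 for bta-miR-148b. The cause of these changes was not tested.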
